A study of Drosophila melanogaster with 7 samples.

Results

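The euchromatic part of the left arm of chromosome 2 of Drosophila melanogaster, from 0.5 Mb to 22 Mb of 2L in the dm6 build, was examined for the direction in which replication forks crossed it. Every deposited fork, origin and termination call was taken whose interval midpoint lay in that 21.5 Mb. This gave 5718 of the 30828 forks of the 5 untreated pulse libraries, 266 of their 1513 origins and 350 of their 1984 terminations, together with 286 of the 1529 origins of a BrdU gradient library.

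The cells were S2, a line derived from Drosophila embryos, and single DNA molecules were read by Nanopore sequencing. An untreated control, read on a MinION, and replicates 1 and 2 were pulsed with 10 µM EdU for 7 min and then 10 µM BrdU for 15 min, and replicates 3 and 4 were pulsed for 3 min and 6 min. All but the control were read on a PromethION. All pulsed cells were chased for 20 min in 50 µM thymidine. In the gradient library BrdU rose by 0.5 µM every 2.5 min to 12 µM over 1 hr and stayed for a further 30 min. Each pulsed sample combined 2 flasks split from 1 flask, and nothing in the labels says whether replicates came from separate cultures, so the p-values below measure the spread between these libraries. The control, the 7 and 15 min pair, the 3 and 6 min pair and the gradient library each carry a batch label of their own, so pulse length and batch cannot be told apart.

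Replication starts at origins, where the origin recognition complex has loaded the MCM helicase, and a pair of forks then leaves in opposite directions. A fork ends where it meets one coming the other way. Along a chromosome the share of forks that move rightward, towards higher coordinates, therefore rises where forks part and falls where they meet. In Drosophila cells the origin recognition complex is known to bind open chromatin, often near promoters, and no single sequence defines an origin. A pulse of EdU followed by BrdU gives each fork a direction, because the EdU segment is the older end of the track.

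The fork calls on the 21.5 Mb were unevenly spread over the libraries. The control held 363 forks, the 7/15 min replicates 1865 and 2393, and the 3/6 min replicates 540 and 557. The 5718 forks lay on 5100 reads, and 4558 of them (79.7%) were the only call on their read. Median read length ran from 29.4 kb in 3/6 min replicate 3 to 60.0 kb in the control. Over the whole region the directions were balanced. Rightward forks made up 50.4% of the control, 50.0% and 49.2% of the 7/15 min replicates, and 52.8% and 46.7% of 3/6 min replicates 3 and 4, with a mean of 49.8% ± 2.20 (SD, n = 5; exact two-sided sign-flip test against 50%, p = 0.75). The sign-flip test over 5 libraries cannot give a p below 0.0625.

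That balance hid local preferences of either direction. The region was divided into 107 windows of 200 kb and a last window of 100 kb, which held 20 to 96 forks each (median 53 in the full windows). The rightward share per window ran from 7.14% to 93.8%, with an SD of 19.3 percentage points over the 108 windows, against 6.59 points from counting error. In 66 windows the share lay 10 or more points from 50%, in 34 windows 20 or more points, and in 12 windows 30 or more. A quasi-binomial fit per window (dispersion squeezed with limma, p-values adjusted by the Benjamini-Hochberg method over all windows of 6 arms) called 44 of the 108 windows (40.7%) away from 50% at an adjusted p under 0.05. Over all arms 202 of 625 windows were called, 32.3%, and 30.6% of those outside the region. Windows with few forks are harder to call, and those outside the region ran to the ends of the arms. Fork counts lay below the rate over all arms in 18.8% of windows outside the region and 2.78% inside it. They lay above it in 9.14% and 16.7% (quasi-Poisson fit, 1 dispersion common to all windows). The 44 were 22 rightward windows, where the share over all arms was 16%, and 22 leftward windows, where it was 16.3%. The number of calls was 8 without 7/15 min replicate 2 and 26 without replicate 1, and 34 to 47 without each of the other libraries. With windows moved by 100 kb, 32 of 107 (29.9%) were called in the region and 197 of 621 over all arms, so the excess in the region depended on the grid.

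**Figure D1:**
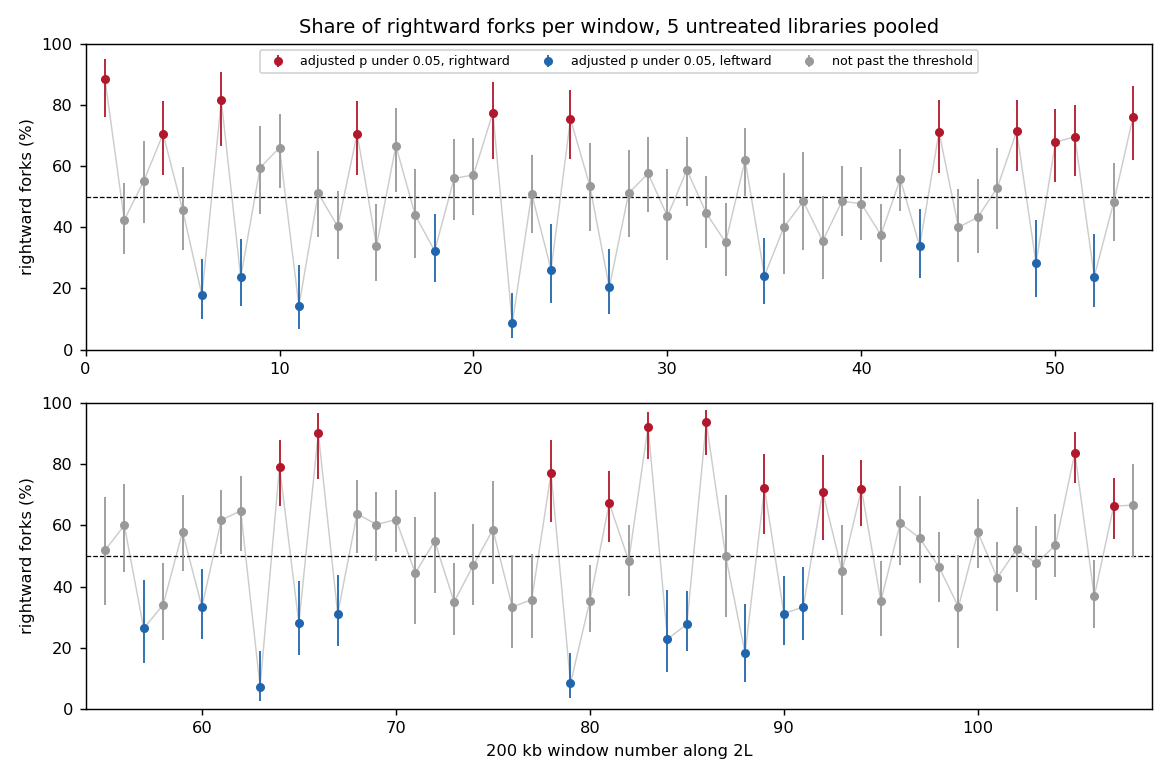
Share of rightward forks in each of the 108 windows, in order along 2L and split over 2 panels, with 95% Wilson intervals that cover counting error only. Red points (22) and blue points (22) passed an adjusted p under 0.05, and the share moves from side to side between windows, from 7.14% to 93.8%.

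The most leftward window was 2L 12900001 to 13100000, where 3 of 42 forks moved right (7.14%). It holds CG9932 and mTor, which encodes a growth-regulating kinase, as its longest genes. No fork of the control moved right there (0 of 2), none of 7/15 min replicate 1 (0 of 16) and none of 3/6 min replicate 3 (0 of 5), with 1 of 16 in 7/15 min replicate 2. In 3/6 min replicate 4, 2 of 3 forks moved right, so the libraries overlapped through that one (quasi-binomial fit with limma, adjusted p = 9.75e-05). In 2L 16100001 to 16300000, around the calcium channel gene Ca-alpha1D, 5 of 60 forks moved right (8.33%). Rightward forks were 1 of 4 in the control, 2 of 26 and 1 of 22 in the 7/15 min replicates, and 0 of 3 and 1 of 5 in the 3/6 min replicates. All 5 libraries lay below 50% (adjusted p = 5.19e-06).

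The most rightward window was 2L 17500001 to 17700000, which lies over CadN, the gene of N-cadherin, and the dynein gene Dhc36C. There 45 of 48 forks moved right (93.8%), with 3 of 3 in the control, 20 of 20 and 17 of 18 in the 7/15 min replicates, 4 of 5 in 3/6 min replicate 3 and 1 of 2 in replicate 4 (adjusted p = 1.16e-05). In 2L 16900001 to 17100000, over beat-IIIb and tweek, 48 of 52 forks moved right (92.3%). The counts were 3 of 3 in the control, 17 of 17 and 17 of 18 in the 7/15 min replicates, and 8 of 9 and 3 of 5 in the 3/6 min replicates, all above 50% (adjusted p = 1.16e-05).

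The other windows of the 6 lowest shares were 2L 4700001 to 4900000 (8.62% of 58 forks), 2500001 to 2700000 (14.3% of 42), 1500001 to 1700000 (17.9% of 56) and 17900001 to 18100000 (18.2% of 33). The third of these covers haf and chinmo, a BTB zinc finger factor of neuronal and stem cell identity. The other windows of the 6 highest shares were 2L 13500001 to 13700000 (90.3% of 31 forks), the first window of the region (88.6% of 44), 21300001 to 21500000 (83.8% of 74) and 1700001 to 1900000 (81.6% of 38). The first lies over kuz, the metalloprotease that cleaves Notch, and the second over ds, a large cadherin of planar polarity, and ush, a zinc finger cofactor of GATA factors. The third takes in the histone genes, a tandem array whose copies are near identical, so the placement of reads inside it is uncertain. Their adjusted p-values ran from 6.14e-06 to 0.0035.

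Forks of a library that had not contributed to a call ran the same way on average. When windows were called without a library and read in that library, forks moved right in 76.6% ± 9.46 of cases in the rightward windows and in 26.7% ± 8.75 in the leftward ones (mean ± SD, n = 5). The difference was 41.8 points in the control, 56.1 and 75.8 points in the 7/15 min replicates, and 46.8 and 29.0 points in the 3/6 min replicates. It was positive in 5 of 5 libraries and averaged 49.9 ± 17.5 points (exact two-sided sign-flip test, p = 0.0625, the smallest it can give). For 7/15 min replicate 2 this rests on the 8 windows called without it. In all 44 called windows the 7/15 min replicates lay on the same side of 50%, but their forks had entered those calls. In 20 of the 44, every library with forks lay on the called side.

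Window by window, the shares of 7/15 min replicates 1 and 2 correlated with a Pearson r of 0.80 over 107 windows with 5 or more forks in each (Spearman 0.78). The pooled long and short pulses gave r = 0.66 over 99 windows, and forks read on the forward and the reverse strand of the genome gave r = 0.78 over 108. The replicates of the 7/15 min pulses gave 0.68 and 0.61 with 3/6 min replicate 3 (59 windows each) and 0.32 and 0.45 with replicate 4 (56 and 57 windows). The 3/6 min replicates gave 0.31 with each other over 31 windows. The control gave 0.37 and 0.60 with the 7/15 min replicates (31 windows each), -0.14 with 3/6 min replicate 3 over 23 windows and 0.27 with replicate 4 over 20. These are descriptions over windows that share the same genome, and neighbouring windows are not independent. The mean dispersion of the window fit on 2L was 1, the value that counting error alone gives. A direct comparison of the schemes called 0 of 108 windows (0% of 613 over all arms). At an unadjusted p under 0.05 it gave 1 window as fitted with the squeezed dispersion and 9 with 1 common dispersion, with no adjusted call by either. The 3/6 min replicates held only 540 and 557 forks over the region, so a difference in a single window is hard to detect. Read length and the versions of the caller also differed between the schemes and cannot be told apart from pulse length.

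**Figure D2:**
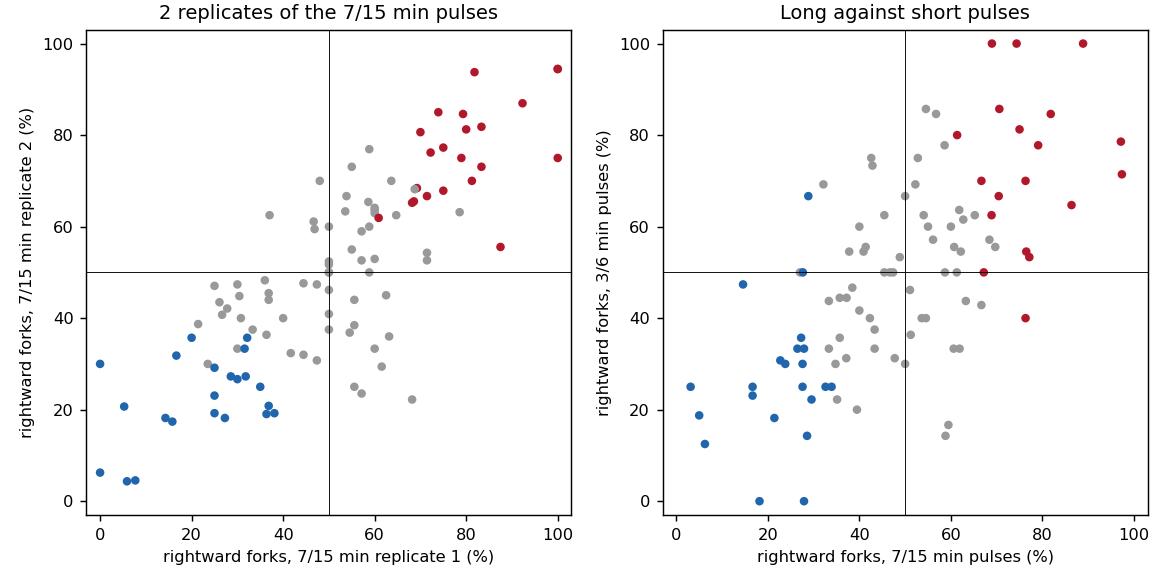
Rightward share per window in 7/15 min replicate 1 against replicate 2 (left, 107 windows) and in the pooled 7/15 min against the pooled 3/6 min libraries (right, 99 windows), for windows with 5 or more forks on each axis. Red and blue points are the windows called rightward and leftward from these same forks. They lie in opposite corners between the replicates and spread more between the pulse lengths, where a few sit at or across 50% in the 3/6 min libraries.

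Neighbouring windows more often differed than matched in direction. The share correlated at r = -0.42 with that of the next window (107 pairs), at -0.02 over 400 kb and at 0.15 over 600 kb. It crossed 50% between 72 of 106 neighbours, so that runs on one side had a median length of 1 window, and the longest ran for 7. A test of each boundary between neighbouring windows called a change at 59 of 107 (55.1%, with 32 rises and 27 falls), against 42.7% of 595 over all arms. Boundaries between windows with few forks are likewise harder to call. Taken in order, the 44 called windows gave 43 successive pairs, of which 28 were of opposite direction, 14 from leftward to rightward and 14 the other way. Of these 28 switches, 18 fell between windows that touch. Without 7/15 min replicate 2, 32 boundaries were called. With windows moved by 100 kb, 34 of 105 (32.4%) were called on 2L and 252 of 592 over all arms. The share on 2L then lay below that over all arms, so its excess depended on the grid.

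The boundary with the smallest p-value was at 2L 17500001, inside mEFTs, a mitochondrial translation factor gene, where the rightward share went from 27.6% (21 of 76 forks) to 93.8% (45 of 48). It rose in 4 of 5 libraries, from 1 of 19 to 20 of 20 forks in 7/15 min replicate 1 and from 6 of 29 to 17 of 18 in replicate 2 (quasi-binomial fit with limma, adjusted p = 2.98e-12). At 2L 13100001, 6.81 kb from Ttc30, a gene of ciliary transport, the share rose from 7.14% to 79.2% in 5 of 5 libraries (adjusted p = 1.27e-11). At 2L 1700001, inside chinmo, it rose from 17.9% to 81.6% in 5 of 5 (adjusted p = 8.3e-09). The other boundaries of the 6 smallest p-values were falls. At 2L 4700001, inside dcma, the share went from 77.5% to 8.62% (5 of 5 libraries, adjusted p = 3.39e-11). At 2L 16100001, 4.06 kb from CG4891, it went from 77.1% to 8.33% (3 of the 4 libraries with forks on both sides, adjusted p = 1.06e-10), and at 2L 17100001, 10.8 kb from CG12620, from 92.3% to 22.9% (5 of 5, adjusted p = 2.53e-10).

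Since the window grid is arbitrary, forks in the 75 kb left and right of a position were compared every 25 kb, a scan added after the window results were seen, with 1 common dispersion. Of 741 positions with 10 or more forks on each side, 122 were called as rises of the rightward share and 119 as falls. Over all arms 14.8% of 3935 positions were called as rises and 14.4% as falls, so the arm was near the average of the genome. Adjoining called positions merged into 62 rises and 54 falls. Successive rises lay a median of 300 kb apart (50 to 975 kb) and successive falls 350 kb (50 to 1300 kb). In order along the chromosome, 93 of 115 neighbours were of opposite kind, a rise followed by a fall or the reverse, an order that a share bounded at both ends favours. The median change was 53.3 percentage points at rises (26.0 to 91.3) and 51.1 points at falls (18.8 to 81.2), values chosen by the scan and given as a description. At 40 of the 62 rises and 37 of the 54 falls, every library with forks on both sides changed in the same direction. Without 7/15 min replicate 2 the scan found 23 rises and 24 falls, and without replicate 1 it found 35 of each.

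Changes of the same sign were seen in the library left out of the scan. At rises called from the other 4 libraries, forks of the fifth moved right in 28.2% ± 4.46 of cases in the 75 kb to the left and in 76.3% ± 6.66 in the 75 kb to the right (mean ± SD, n = 5). The difference was 47.2 points in the control, 52.9 and 55.9 points in the 7/15 min replicates, and 49.1 and 35.5 points in the 3/6 min replicates, a mean of 48.1 ± 7.80. At falls the share went from 69.9% ± 5.44 to 28.0% ± 2.92, a change of -41.9 ± 7.96 points, with -35.5 in the control, -46.6 and -51.8 in the 7/15 min replicates and -43.1 and -32.4 in the 3/6 min replicates. Both held in 5 of 5 libraries without overlap between the sides (exact two-sided sign-flip tests, p = 0.0625 for each, the smallest possible).

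**Figure D3:**
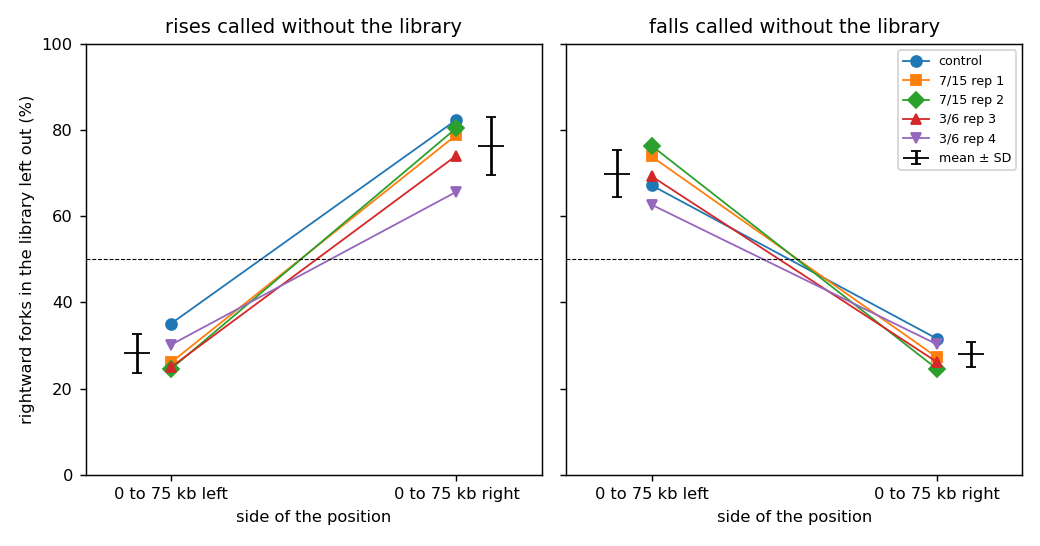
Share of rightward forks in the 75 kb left and right of positions called from the other 4 libraries, in each library left out, with the mean and SD of the 5 in black. All 5 libraries go up at rises (mean 28.2% to 76.3%) and down at falls (mean 69.9% to 28.0%).

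Rises lay among many genes and falls among few. The region holds 2551 protein-coding genes, 119 per Mb by gene midpoint. Within 25 kb of the 62 rises there were 521 genes, or 168 per Mb, and within 25 kb of the 54 falls there were 176, or 65.2 per Mb. With distance the densities crossed: at 75 to 100 kb they were 79.6 per Mb from rises and 158 per Mb from falls. A rise had a median of 7.5 genes within 25 kb and a fall 2, and fewer than 3 genes lay there at 6 of 62 rises and 33 of 54 falls. Gene positions played no part in the calls. The order was the same in every setting of the scan that was run: rises lay at 153 to 180 genes per Mb and falls at 64.6 to 80.6 per Mb with flanks of 50 or 100 kb, with lone forks, and without each library in turn. It was also the order on the other arms, with 159 against 90 genes per Mb on 2R, 125 against 65.6 on 3L, 180 against 70.6 on 3R and 122 against 40 on X.

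Long genes were met more at falls. Genes with a span of 50 kb or more (51 in the region) cover 19.2% of it, 35.5% of the bases within 25 kb of falls and 8.04% of those within 25 kb of rises. The position of the smallest p lay inside such a gene at 19 of 54 falls and 5 of 62 rises. Where along a gene a position fell, in an exon or an intron, was not read, since the gene table gives spans without exons or strand. Fork depth did not follow the gene counts. Forks numbered 236 per Mb within 25 kb of rises and 292 per Mb within 25 kb of falls, against 266 per Mb in the region.

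**Figure D4:**
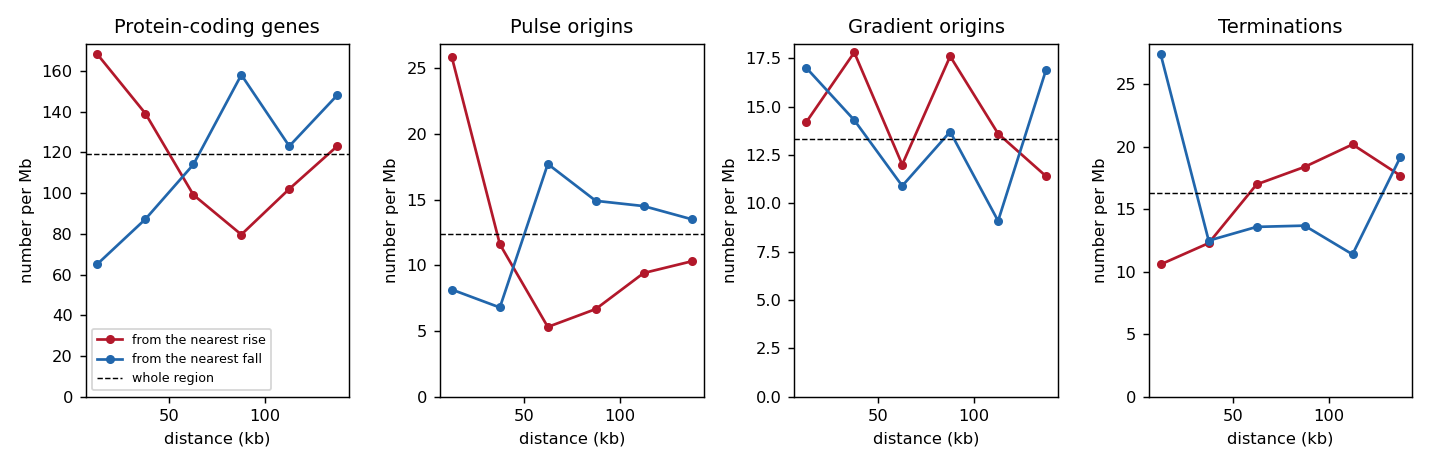
Protein-coding genes, pulse origins, gradient origins and terminations per Mb by distance from the nearest rise (red) and the nearest fall (blue) on 2L, in steps of 25 kb, with the density of the whole region dashed. In the first 25 kb genes stand at 168 per Mb for rises and 65.2 for falls, pulse origins at 25.8 and 8.15, and terminations at 10.6 and 27.4.

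The 4 rises and 4 falls with the smallest p-values were chosen after their values were seen. Their gene counts overlapped: 5 to 14 genes lay within 25 kb of the rises and 1 to 39 within 25 kb of the falls. At 2L 17425001 none of the 29 forks to the left moved right and 21 of the 23 to the right did (91.3%), a rise inside Dif (17413248 to 17433161), an NF-kB factor of the immune response. The left side held 2, 13, 11, 2 and 1 forks of the control, the 7/15 min replicates and the 3/6 min replicates, all leftward. On the right, rightward forks were 5 of 5, 1 of 2, 6 of 6, 4 of 5 and 5 of 5 in the same order (quasi-binomial fit, adjusted p = 5.53e-11). Next came rises at 2L 18150001 inside Socs36E (18138675 to 18152417), an inhibitor of JAK/STAT signalling, from 16.7% of 18 forks to 100% of 21 (adjusted p = 4.07e-07), and at 2L 8975001 inside CG9541 (8970520 to 8975428), from 0% of 25 to 77.8% of 18 (adjusted p = 4.8e-07). The fourth, at 2L 15925001 inside beat-Ib and CG4793, went from 5.00% of 20 to 90.0% of 20 (adjusted p = 6.14e-07).

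Among falls, that at 2L 8850001, 12.8 kb from CG32986, went from 65.8% of 38 forks to none of 34 (adjusted p = 1.52e-08). On its left, 2 of 3 forks of the control moved right, 7 of 15 and 13 of 16 of the 7/15 min replicates, and 2 of 3 and 1 of 1 of the 3/6 min replicates. On its right the 7/15 min replicates held 16 and 15 forks and the 3/6 min replicates 2 and 1, all leftward, and the control held none. At 2L 12250001, inside the 138 kb span of bru1 (12175004 to 12313438), an RNA-binding regulator of splicing and translation, the share fell from 78.9% of 19 forks to 4.76% of 21 (adjusted p = 1.49e-05). At 2L 1525001, 0.744 kb from the odorant receptor gene Or22b, it fell from 70.4% of 27 to 4.35% of 23 (adjusted p = 1.49e-05). At 2L 21450001 it fell from 97.1% of 34 to 29.4% of 17 (adjusted p = 6.12e-06), but this position lies in the histone array, where read placement is uncertain and 39 gene midpoints lay within 25 kb.

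Origins called on single reads gathered at the rises. Within 25 kb of rises pulse origins numbered 25.8 per Mb (80 origins) and within 25 kb of falls 8.15 per Mb (22), against 12.4 per Mb in the region. The forks of an origin read enter the scan, so these counts are not independent of it. With lone forks, which are the only call on their read, the scan gave 60 rises and 48 falls, and origins stood at 22.9 and 7.92 per Mb. With positions called from the other 4 libraries, 24.3% ± 9.02 of a library's origins and 10.1% ± 3.91 of its forks lay within 25 kb of a rise (mean ± SD, n = 5). The excess was 23.2 points in the control, 18.3 and 5.08 in the 7/15 min replicates and 15.6 and 8.99 in the 3/6 min replicates, positive in 5 of 5 with a mean of 14.2 ± 7.24 points (exact two-sided sign-flip test, p = 0.0625). Near falls the shares were 13.5% ± 13.5 of origins and 11.2% ± 3.71 of forks, a difference within the spread of libraries (exact sign-flip test, p = 0.938).

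Terminations gave a less even picture. They numbered 27.4 per Mb within 25 kb of falls (74 terminations) and 10.6 per Mb within 25 kb of rises (33), against 16.3 per Mb in the region, and 24.6 and 13.1 per Mb where the scan used lone forks. Where the library's own forks were left out, however, 11.9% ± 8.07 of its terminations and 11.2% ± 3.71 of its forks lay near falls. The differences were 9.30 points in the control, 4.29 and -2.03 in the 7/15 min replicates, and -6.75 and -1.76 in the 3/6 min replicates, which overlap 0 (mean 0.611 ± 6.24, exact two-sided sign-flip test, p = 0.812). Gradient origins numbered 14.2 per Mb near rises, 17 per Mb near falls and 13.3 per Mb in the region.

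The polarity of forks was then read around the calls themselves, with each fork assigned to the nearest call of another library. Across pulse origins of other libraries the rightward share rose from 46.1% in the 50 kb to the left to 59.7% in the 50 kb to the right in the control. It went from 42.3% to 58.3% and from 43.0% to 60.5% in the 7/15 min replicates, from 37.1% to 56.7% in 3/6 min replicate 4, and from 57.7% to 55.7% in 3/6 min replicate 3. Thus 4 libraries rose by 13.6 to 19.6 points and the fifth changed by -2.06 (mean 12.9 ± 8.65, exact two-sided sign-flip test, p = 0.125). The mean was 17.8 points without 3/6 min replicate 3 and 8.37 without 7/15 min replicate 1, and 1.56 where only origins called to within 5 kb served as centres. On 2R, 3L, 3R and X the same measure gave means of 14.3 to 18.1 points.

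Across terminations of other libraries the share fell in 5 of 5 libraries. It went from 50.3% to 47.3% in the control, from 52.6% to 43.9% and from 54.3% to 42.4% in the 7/15 min replicates, and from 52.0% to 49.0% and from 51.0% to 43.6% in the 3/6 min replicates (mean -6.80 ± 3.83 points, exact two-sided sign-flip test, p = 0.0625). Without 7/15 min replicate 1 the mean was -4.09, and with flanks of 20 kb it was -2.58 ± 5.67 (exact sign-flip test, p = 0.312). Across gradient origins the share was 49.3% ± 3.82 to the left and 51.3% ± 1.74 to the right. The differences, -2.10 points in the control, 5.74 and 0.071 in the 7/15 min replicates and 2.82 and 3.28 in the 3/6 min replicates, averaged 1.96 ± 3.03 and overlapped 0 (exact sign-flip test, p = 0.188). The mean on the other 4 arms ran from -3 to 2.78 points. The gradient calls differ from the pulse calls in labelling, batch and calling, and the part of each was not tested.

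**Figure D5:**
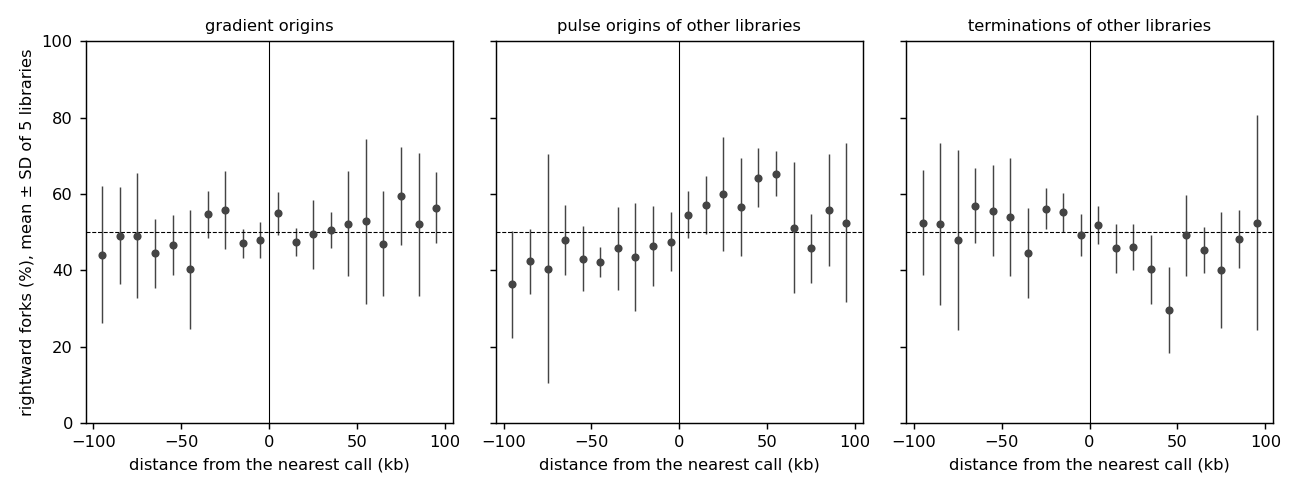
Mean share of rightward forks (± SD of 5 libraries) in 10 kb steps up to 100 kb left and right of gradient origins, pulse origins of other libraries and terminations of other libraries on 2L. The 50 kb flanks average 49.3% and 51.3%, 45.3% and 58.2%, and 52.1% and 45.2%.

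Origin calls of different libraries seldom fell in the same 10 kb. Of the 2150 tiles of 10 kb in the region, 458 held an origin call of any of the 6 libraries. One library alone accounted for 413 of them, 38 held origins of 2 libraries, 6 of 3 and 1 of 4. With tiles moved by 5 kb, 4 tiles held origins of 3 or more libraries. Between 18.2% (7/15 min replicate 1, 16 of 88) and 45.5% (3/6 min replicate 3, 5 of 11) of a pulse library's origins lay within 5 kb of an origin of another library, and 10.8% of the gradient's 286. The number of origins in the other libraries sets these shares. Pulse libraries held 11 to 116 origins each, which also limits the overlap of tiles. The overlap that chance gives, or that other arms show, was not computed. Terminations, called in the 5 pulse libraries alone, fell in 313 tiles, of which 25 held those of 2 libraries and 0 those of 3 or more. Of the 7 origin tiles with 3 or more libraries, 5 reached that number through a gradient origin, and the recurrence of origins and terminations was not compared.

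The tile with 4 libraries, 2L 14360001 to 14370000, held 6 origins. Their mean midpoint lay 0.225 kb from spel1, whose product acts in mismatch repair. The 6 origins came from the control (1), the 7/15 min replicates (2 each) and 3/6 min replicate 4 (1). They had widths of 0 to 92.1 kb, so their midpoints are partly coarse. Forks of other reads moved right in 5 of 16 cases in the 50 kb to its left (31.2%) and in 15 of 19 to its right (78.9%). At 2L 15050001 to 15060000, with the mean midpoint inside TfIIS, a transcription elongation factor gene, the shares were 2 of 13 (15.4%) and 16 of 20 (80.0%). At 2L 18130001 to 18140000, with the mean midpoint inside kel, which encodes the ring canal protein Kelch, they were 0 of 10 and 13 of 13. In the tiles near CG32982 (9120001 to 9130000), CG5853 (9940001 to 9950000) and CG10874 (2180001 to 2190000) the share was also higher on the right, by counts of 3 of 13 and 5 of 7, 4 of 10 and 11 of 16, and 1 of 3 and 8 of 12. The seventh, at 2L 8360001 to 8370000 inside CG7627, had 6 of 19 to the left and 2 of 7 to the right. These counts were not tested.

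Forks per full window ran from 20 to 96. With the squeezed dispersion 6 of 108 windows departed from the rate over all arms, against 10.8% of 677 windows, and with 1 common dispersion, added after simulated data showed the squeezed fit to miss changes in sparse counts, 18 were higher and 3 lower. Over all arms 10.3% were higher and 16.2% lower. The 6 calls of the squeezed fit fell to 0 without the control, either 7/15 min replicate or 3/6 min replicate 4, and to 4 without 3/6 min replicate 3. The highest window, 2L 8500001 to 8700000 over Sema1a, a guidance ligand, held 96 forks (10 in the control, 36 and 34 in the 7/15 min replicates, 9 and 7 in the 3/6 min replicates), 2.10 times the rate over all arms (adjusted p = 2.44e-06 with 1 common dispersion). The adjoining window over raw and Hnf4 held 86 forks, and those over wb (14300001 to 14500000) and Nhe2 (21100001 to 21300000) held 84 each. The lowest count was 20 forks at 2L 17700001 to 17900000, over parts of CadN and CadN2 (0.438 times, adjusted p = 0.00224 with 1 common dispersion). Next came 27 in each of the windows of salr and salm (11300001 to 11500000) and of osp and Adh (14500001 to 14700000). Fork counts depend on how often and how well a window was sequenced, which the call files do not give.

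No departure of origins or terminations per fork from the rate over all arms was detected in any window. Medians of 2 and 3 calls per full window make a departure hard to detect. Neither dispersion gave an adjusted call (0% of 625 windows for each), with 1 window at an unadjusted p under 0.05 for origins and 2 for terminations with the squeezed dispersion, and 8 for each with 1 common dispersion. The most origins, 8, lay in 2L 14300001 to 14500000, over the laminin gene wb and around spel1, and 7 each in the windows of dachs (8300001 to 8500000), bib (9900001 to 10100000) and sick (19900001 to 20100000). The most terminations, 10, lay in 2L 21700001 to 21900000 over nolo and CG31612, followed by 8 each in the windows of Dpp10, Pde11, sick and Nhe2. Full windows held medians of 2 pulse origins, 3 terminations and 2 gradient origins, and 9, 8 and 10 of them held none. The most gradient origins, 16 at 2L 14700001 to 14900000, lay on 6 reads, with up to 5 on 1 read. Terminations followed the number of forks (r = 0.57 over 107 windows) more closely than origins (0.30) or gradient origins (0.09) did. Forks, pulse origins and terminations share their reads, while gradient origins come from reads of another library.

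Against the other long arms, the region had fewer terminations per fork in every library. The region was cut to the euchromatic part of 2L, while calls of the other arms were counted without an upper limit. The rates below therefore differ in extent as well as in arm, and the part of each was not tested. There were 6.61 terminations per 100 forks in the control against 7.47 on 2R, 3L, 3R and X, 5.58 and 6.77 against 6.32 and 6.96 in the 7/15 min replicates, and 5.19 and 5.75 against 5.51 and 6.20 in the 3/6 min replicates. The difference was small, -0.12 ± 0.06 on the log2 scale (SD, n = 5; exact two-sided sign-flip test, p = 0.0625). Origins per 100 forks were 4.68 in the control, 4.72 and 4.85 in the 7/15 min replicates, and 2.04 and 6.10 in 3/6 min replicates 3 and 4, against 4.07 to 5.41 on the other arms. The log2 ratio, -0.20 ± 0.50, was above 0 in 2 of 5 libraries (exact sign-flip test, p = 0.562), and its size rested on 3/6 min replicate 3, without which it was 0.00.

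Gene groups were described by the origin calls, pulse and gradient, within 5 kb of their members, beside 854 of all 2551 protein-coding genes (33.5%), whose median span is 1.97 kb. Of 21 developmental transcription factor genes in the region, 9 had an origin (42.9%, median span 11.3 kb), with 2 each at tsh, salm, bun and ush. Of 13 signalling genes, 4 did (30.8%), led by the cell adhesion gene ed with 5, and 8 of the 13 lay in called windows (61.5%), 6 of them leftward. Of 7 replication and cell cycle genes, 5 did (71.4%), with 7 at spel1 and 1 each at CycE, the S-phase cyclin, Mcm10 and Psf2. Ribosomal protein genes had 6 of 16 (37.5%), with 3 at RpS13. Of 10 hemocyte and S2 genes only Pvr, the receptor of PDGF- and VEGF-related factors, had any (2). All 12 genes with a span of 100 kb or more had at least 1, up to 7 at mtgo, as their length allows. Of all genes, 39.6% lay in called windows (535 in rightward and 475 in leftward ones), against 5 of the 21 developmental factors (23.8%), 3 of the 7 replication and cell cycle genes (42.9%), 5 of the 16 ribosomal protein genes (31.2%), 6 of the 12 long genes (50%) and 0 of the 10 hemocyte and S2 genes. Histone genes, 37 of 112, are copies in an array and count as 1 place. Members of other lists can also share a window, as wg and Wnt6 do in the leftward window 2L 7300001 to 7500000. The shares in called windows, 0 of 10 among them, therefore count genes and not separate places. Shares of groups that differ in gene length cannot be compared directly.

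In the called windows, forks running with the prevailing direction had longer tracks than those against it in 5 of 5 libraries. Complete forks, whose tracks lay 5 kb or more inside both ends of their read, had median tracks of 13.8 against 11.8 kb in the control, 15.3 against 13.3 kb and 15.3 against 14.4 kb in the 7/15 min replicates, and 10.8 against 10.5 kb and 8.66 against 7.01 kb in the 3/6 min replicates. The mean difference was 1.36 ± 0.723 kb (exact two-sided sign-flip test, p = 0.0625), on 749 and 251 forks. Among complete forks alone on their read the difference did not hold: the mean over the 4 libraries with 5 or more forks of each kind was -0.53 ± 3.19 kb, higher in 2 of 4 (exact sign-flip test, p = 0.875). Forks alone on their read made up 87.2% of those with and 69.5% of those against the prevailing direction. The share of scored forks with a stall score of 0.5 or more was 26.3% with and 24.7% against, a difference within the spread of libraries (1.54 ± 11.6 points, exact sign-flip test, p = 0.75).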

How the data were processed

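Genomic DNA of S2 cells was read by Nanopore sequencing. The submitters' processing notes name the dm6 build, SAMtools 1.10 and minimap2 2.24. Per the file headers, the authors called forks, origins and terminations with DNAscent 4.0.1 or 4.0.3. Version 4.0.1 made the control, 4.0.3 the 3/6 min libraries, and both versions the 7/15 min libraries. For the gradient origins no caller is given in the labels or the file. The deposited values are other values (coordinates and lengths in bp, strand and direction) and a stall score per fork, where negative values mark unscored forks. Segments of a single analogue and the library treated with HU, a replication inhibitor, were not used here.

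Calls were placed by their midpoints with Python 3.11.15, numpy 2.4.6, pandas 2.3.3 and scipy 1.17.1. Windows of 200 kb with 20 or more forks were fitted in R 4.3.3 as quasi-binomial (direction) or quasi-Poisson (counts) over libraries. The dispersion was squeezed with limma 3.58.1, with a floor of 1, and p-values were adjusted over all windows of 2L, 2R, 3L, 3R, 4 and X at 0.05. On simulated data for windows of 200 kb the squeezed fit recovered large changes of share but missed changed rates in sparse counts. Fits with 1 common dispersion were therefore added. The fits also differed for direction in smaller windows. At 100 kb the squeezed fit called 0 of 171 windows and the fit with 1 common dispersion 75. Values per library were tested by exact two-sided sign-flip tests. Intervals are 95% Wilson intervals and cover counting error only. Gene spans came from a RefSeq table of Release 6 plus ISO1 MT, the release of dm6, which has no strand or exons. No sequence is printed, and no genome was used here.

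Sample titles gave the groups. The region, the gene lists and the tests were chosen with earlier results of these data known. Named were the 6 highest and 6 lowest called windows, the 6 boundaries of smallest p, the windows with the most or fewest calls, 10 kb tiles with calls of 3 or more libraries, and up to 4 genes per list. Only 3 pairs of reads of 1 library had both ends within 200 bp of each other. Alternatives were other windows, flanks and fork subsets, and leaving out each library.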

Additional observations from a re-analysis of the deposited data

Results flagged for a closer look

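Of the 5 libraries, 3/6 min replicate 3 stood far from the others in 2 measures. Across pulse origins of other libraries its rightward share changed by -2.06 points, where the other 4 rose by 13.6 to 19.6. Near falls called without it lay 36.4% of its origins and 13.9% of its forks, an excess of 22.5 points, where the other libraries gave -4.63 to 0.634. Its origins on 2L numbered 11, the fewest of the 5 libraries, and 4 of them lay near falls. The cause was not tested, and chance alone marks about 1 in 20 groups of values.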

How the results depend on the processing

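No paired analysis was possible because the groups share fewer than 2 replicate numbers. Windows of 50 kb, tests on read strands, 1 common dispersion and the scan were chosen after seeing the data. The 44 windows with a direction became 0 with windows of 100 kb or 50 kb, 18 with 400 kb, 25 with lone forks, 10 with complete forks, 25 and 9 with forks read on the forward and reverse strands, and 8 to 47 with 1 library left out, fewest without 7/15 min replicate 2. With 1 common dispersion windows of 100 kb gave 75 of 171 and those of 50 kb 31 of 62. All 44 kept their side with lone forks and passed again there with 1 common dispersion. Of those with enough forks, 28 of 28 kept their side with complete forks, and 31 of 33 and 33 of 36 by strand. All these subsets are part of the forks that made the calls, which favours the same side. The 59 boundaries became 15 with windows of 400 kb, 1 with 50 kb (4 with 1 common dispersion), 34 with the grid shifted by 100 kb, 15 with complete forks, 19 and 17 by strand, and 32 to 56 without 1 library. The 62 rises and 54 falls became 30 and 31 with flanks of 50 kb, and 23 to 60 and 24 to 52 without 1 library. The pulse schemes gave 0 windows without any 1 of their 4 libraries. The 6 windows by fork count became 12 with windows of 400 kb, 18 with the grid shifted, 12 with no floor on the dispersion, 0 to 4 without 1 library, and 21, 29 and 25 with 1 common dispersion and windows of 200, 100 and 50 kb. Without the floor origins gave 9 windows and terminations 8, and without 1 library both gave 0. Tiles with origins of 3 or more libraries became 4 when shifted by 5 kb and 1 with calls up to 5 kb wide.

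With calls up to 5 kb wide as centres, the change across gradient origins turned to -0.988 points and that across pulse origins came to 1.56. Within 20 kb of terminations the change was -2.58. Without 1 library these ranged from 1.02 to 2.98, from 8.37 to 17.8 and from -8.75 to -4.09. The log2 ratio of termination rates was -0.30 on reads of 50 kb or more and ran from -0.14 to -0.10 without 1 library, and that of origin rates from -0.34 to 0.00. The balance of directions ran from -0.924 to 0.601 points from 50% and turned sign without 3/6 min replicate 4. The causes were not tested.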
